A study of Homo sapiens
Mus musculus and Mus musculus and Homo sapiens with 3 samples.

Results

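The 40 genes described here copy DNA or supply its nucleotides. They form a fixed list of known replication genes, taken by function but chosen with earlier results of these data known. Of them 10 load the replicative helicase on origins, 6 activate it, 6 form the sliding clamp and its loader, and 4 encode polymerase or primase subunits. Another 5 make or clean up deoxynucleotides, 6 act in fragment maturation, uracil removal, repair or checkpoint signalling, and 3 act on chromatin or on transcription. Their human symbols are used for both species. All 40 were among the 15472 symbols found in every file and among the 11557 that passed the filter on low counts of the joint test.

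Before each division a cell copies its genome. The origin recognition complex, CDC6 and CDT1 load rings of MCM proteins on DNA, CDC45 and GINS turn these rings into moving helicases, and RFC places the PCNA clamp that holds the polymerases to the template. In the ventral spinal cord, dividing SOX2+ progenitors that carry OLIG2 give rise to motor neurons, and NEUROG2, a proneural factor, marks cells on their way out of the cycle. Genes of DNA copying are largely under E2F control and are textbook genes of the G1/S boundary.

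Human and mouse pluripotent stem cells were turned into motor neurons as embryoid bodies, floating aggregates of differentiating cells, and were profiled by 10x Genomics single-cell RNA sequencing of transcript 3' ends. All lines had been infected beforehand with a lentivirus in which the CAGGS promoter drives GFP upstream of a 6 bp barcode, and only GFP+ cells from papain and DNase I digests were sequenced. Human replicate 1 was the line NCRM1 and human replicate 2 the line RUES1, which the labels also call iPS; both mouse replicates were ES cells of strain C57BL/6. The 2 parts numbered 1 came from 1 mixed library, embryoid bodies were sampled every 48 h in human and every 24 h in mouse, and the files give no day for a cell, so every class below pools days.

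The 4 library parts held 2044 to 2407 human and 1881 to 2783 mouse cells, with medians of 11137 and 15766 UMIs (unique molecular identifiers, counted transcript molecules) per human cell and 19122 and 28792 per mouse cell. Cells were classed after thinning each to 7000 UMIs. STMN2+ neurons had at least 3 UMIs of STMN2, a tubulin-binding protein of neurons, and none of SOX2 or NEUROG2, and numbered 194 and 231 in human (replicates 1 and 2, the order of all paired values) and 121 and 339 in mouse. NEUROG2+ cells had a NEUROG2 UMI and fewer than 3 of STMN2. SOX2+ OLIG2- progenitors had a SOX2 UMI and none of OLIG2, and SOX2+ OLIG2+ progenitors a UMI of both. Both progenitor classes had no NEUROG2 UMI and fewer than 3 of STMN2. The smallest class in any part held 121 cells. In neurons the summed level of 10 neuron markers was 5951 to 13472 CPM (UMI counts scaled to the same total in every class and part), against 113 to 301 CPM in OLIG2+ progenitors. TUBB3, a tubulin of neurons among the 10, had no UMI in neurons of human replicate 1. In human replicate 2 it had 779 UMIs in the neurons with 20 or more STMN2 UMIs alone. Motor neuron markers summed to 553 to 1204 CPM in neurons, against 17.4 to 29.4 CPM in OLIG2+ progenitors. Levels are CPM of the summed counts of a class, so a fall cannot be told apart between fewer cells that express a gene and less RNA in each. The human parts are different lines and the labels do not say that the mouse parts were separate cultures. With the part fitted as a block, p-values of class changes measure how classes varied around their part, pooled over both species. Only the test of progenitor levels between species measures the spread between parts. Neither covers more than these 4 parts, n = 2 per species.

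The fall in neurons took in every gene of the list. Summed over the 40 genes, human neurons held 502 and 531 CPM, against 3096 and 3533 CPM in human OLIG2+ progenitors. Mouse neurons held 675 and 651 CPM, against 3631 and 4455 CPM in mouse OLIG2+ progenitors. Neurons thus kept 16.2% and 15.0% of the progenitor level in the human parts and 18.6% and 14.6% in the mouse parts. No background of free RNA in the droplets was estimated, so a kept share counts UMIs in neuron droplets, and the part of free RNA in it was not tested. The human and mouse shares overlapped. All 40 genes passed the test in the downward direction in both species (edgeR quasi-likelihood test, Benjamini-Hochberg adjusted over all 11557 genes at 0.05), where 25.7% of all genes tested did so in human and 28.9% in mouse. The median change on the log2 scale was -3.85 in human and -3.39 in mouse, against -0.02 and 0 over all genes. Set to their counting bounds, the pair of genes with no UMI in human neurons moved the human median to -3.79. Neurons lay below both OLIG2+ progenitor values of the species for 39 genes in human and 40 in mouse, where 25.9% and 24% of all genes tested did. The exception was POLA1, the catalytic subunit of the primer-making polymerase, at 0.983 and 5.87 CPM in human neurons against 5.75 and 18.3 CPM in human progenitors, which did not pass without the library block (edgeR adjusted p = 0.115). Neurons were also lower than NEUROG2+ cells for all 40 genes in both species by the same edgeR test, against 25.1% of all genes lower in human and 29.2% in mouse. Without human replicate 2 DCTD, DUT, UNG and E2F8 did not pass in human in this comparison (edgeR adjusted p from 0.0650 to 0.143), and without mouse replicate 2 GINS3 and GINS4 did not in mouse (0.0520 and 0.0941). Without the library block POLA1, DUT and DCTD did not pass in human and GINS4 did not in mouse (0.0923 to 0.186).

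**Figure D1:**
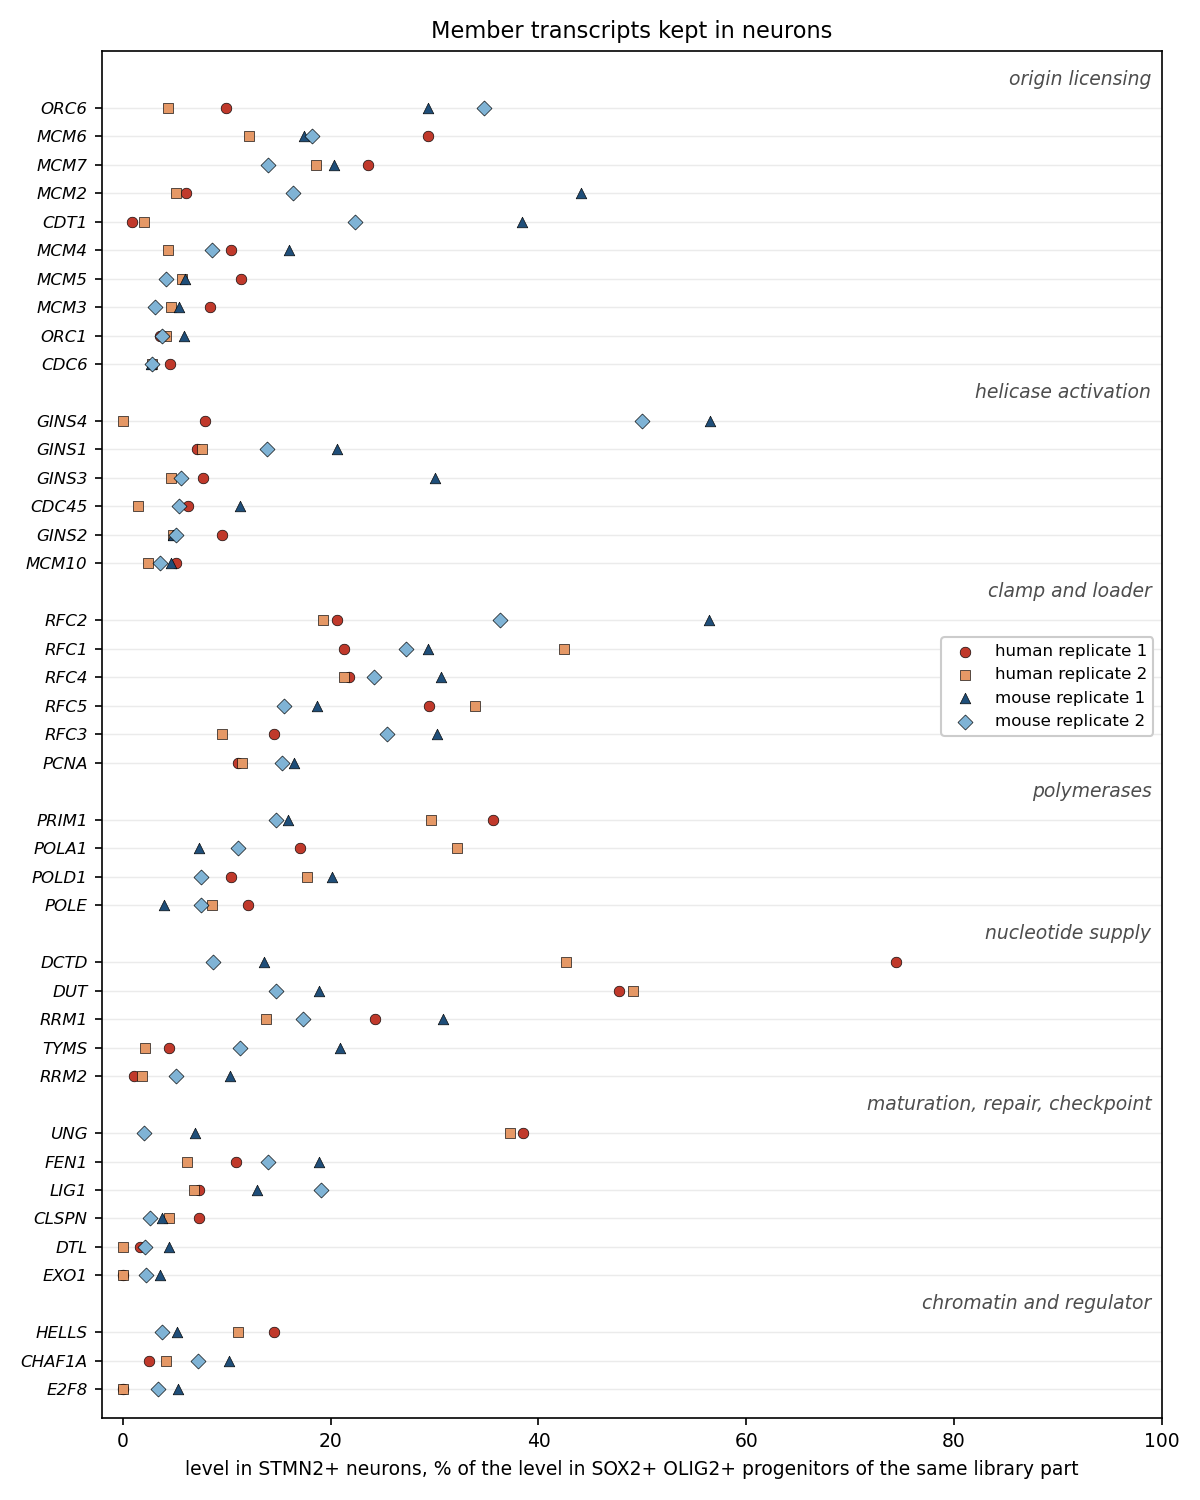
Level of each of the 40 genes in STMN2+ neurons as a percent of its level in SOX2+ OLIG2+ progenitors of the same library part, in functional groups, with 1 symbol per part. Most genes sit under 25%, while DCTD, DUT and UNG lie far to the right in the human parts and GINS4, RFC2 and ORC6 in the mouse parts.

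Origin licensing genes kept 13.7% and 8.93% of their summed progenitor level in human neurons and 20.2% and 15.9% in mouse neurons. MCM7, a subunit of the helicase ring, had 59.5 and 48.9 CPM in human neurons against 252 and 264 CPM in OLIG2+ progenitors. In mouse MCM7 had 42.3 and 40.8 CPM in neurons, against 208 and 291 CPM in progenitors. The groups did not overlap, and MCM7 fell by 2.35 ± 0.18 on the log2 scale in human (SE, edgeR adjusted p = 4.27e-07) and by 2.84 ± 0.18 in mouse (adjusted p = 8.26e-08). CDC6, the loading ATPase, was among the genes kept least: it had 1.47 and 1.22 CPM in human neurons against 32.4 and 43.0 CPM in progenitors, and 0.529 and 0.721 CPM in mouse neurons against 19.9 and 25.6 CPM. ORC1, the large origin recognition subunit, was represented by 3 UMIs in all human neurons, 26-fold under OLIG2+ progenitors (95% counting interval 8.72 to 128). The 6 ring subunits were kept unequally within mouse neurons, where MCM3 was at 5.39% and 3.11% and MCM2 at 44.1% and 16.3%.

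Helicase activation genes kept the least of any group in human neurons, 8.29% and 3.89% of the progenitor sum, and 19.5% and 14.9% in mouse neurons. GINS2, a subunit of the GINS complex, had 14.3 and 8.08 CPM in human neurons against 149.98 and 167 CPM in progenitors. Mouse neurons had 5.29 CPM of GINS2 in each part, against 109 and 104 CPM in progenitors. The log2 change of GINS2 was -4.0 ± 0.24 in human (SE, edgeR adjusted p = 8.21e-08) and -4.54 ± 0.26 in mouse (adjusted p = 4.53e-08). MCM10, which helps start the assembled helicase, was at 1.47 and 0.979 CPM in human neurons against 29.0 and 40.6 CPM in progenitors, and at 1.06 and 0.962 CPM in mouse neurons against 22.7 and 26.8 CPM. In all 4 parts MCM10 and CDC6 were kept at 5.09% or less.

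Clamp and loader genes were kept more than the licensing group in all 4 parts. They kept 17.2% and 23.0% in human neurons and 30.4% and 23.2% in mouse neurons. PCNA, the sliding clamp itself, had 25.6 and 19.6 CPM in human neurons against 232 and 171 CPM in progenitors, and 21.7 and 28.1 CPM in mouse neurons against 132 and 183 CPM. It fell by 3.22 ± 0.18 on the log2 scale in human (SE, edgeR adjusted p = 3.56e-08) and by 2.89 ± 0.17 in mouse (adjusted p = 5.69e-08). RFC1, the large loader subunit, was the only gene kept at a mean of over 25% in both species. It had 19.7 and 54.8 CPM in human neurons against 92.4 and 129 CPM in progenitors, and 30.2 and 30.7 CPM in mouse neurons against 103 and 113 CPM.

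Polymerase and primase genes kept 21.3% and 20.9% in human neurons and 14.4% and 11.2% in mouse neurons. PRIM1, the catalytic primase subunit, had 10.8 and 8.32 CPM in human neurons against 30.4 and 28.1 CPM in progenitors. Mouse values of PRIM1 were 7.94 and 6.37 CPM in neurons and 49.8 and 43.2 CPM in progenitors. POLE and POLD1, the catalytic subunits of the leading and lagging strand polymerases, kept means of 10.3% ± 2.4 and 14.1% ± 5.2 in human neurons (SD, n = 2) and 5.76% ± 2.6 and 13.8% ± 8.9 in mouse neurons (SD, n = 2).

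The nucleotide supply genes were kept unequally, with means per gene from 1.45% to 58.6% in human neurons and from 7.70% to 24.1% in mouse neurons. Ribonucleotide reductase makes deoxynucleotides from a large subunit, RRM1, and a small one, RRM2, and these were kept very differently. RRM1 had 27.0 and 15.7 CPM in human neurons against 111 and 114 CPM in progenitors, and 29.6 and 15.4 CPM in mouse neurons against 96.3 and 88.7 CPM. RRM2 had 1.47 and 0.979 CPM in human neurons against 136 and 53.7 CPM, and 38.1 and 15.6 CPM in mouse neurons against 371 and 305 CPM. RRM2 was thus kept at 1.08% and 1.82% in human and 10.3% and 5.12% in mouse, below RRM1 in every part. DUT is the dUTPase that keeps uracil out of DNA and yields dUMP. Human neurons had 108 and 141 CPM of DUT, against 226 and 287 CPM in progenitors, and mouse neurons 76.2 and 111 CPM against 403 and 751 CPM.

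Maturation, repair and checkpoint genes kept 14.03% and 13.3% in human neurons and 9.85% and 9.10% in mouse neurons. LIG1, the ligase that joins Okazaki fragments, had 3.44 and 3.18 CPM in human neurons against 46.9 and 46.7 CPM in progenitors, and 23.3 and 23.8 CPM in mouse neurons against 179.7 and 125 CPM. EXO1, an exonuclease of mismatch repair, had no UMI in human neurons and 127 in human OLIG2+ progenitors, which makes it at least 23.6-fold lower against a floor of 3 counts over all neurons. In mouse it was at 1.06 and 0.842 CPM in neurons and 29.8 and 37.8 CPM in progenitors. DTL, the substrate receptor of the ubiquitin ligase that removes CDT1 in S phase, had 1 UMI in human neurons, 172-fold under progenitors (95% counting interval 30.7 to 6826), and 4.23 and 1.44 CPM in mouse neurons against 96.1 and 68.1 CPM.

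In the last group, HELLS, a chromatin remodeller linked to DNA methylation, had 17.7 and 29.1 CPM in human neurons against 121 and 264 CPM in progenitors, and 7.41 and 6.49 CPM in mouse neurons against 143 and 175 CPM. CHAF1A, which places histones behind the fork, was kept at 2.48% and 4.17% in human and 10.2% and 7.18% in mouse. E2F8, a repressor of E2F target genes, had 0.529 and 0.601 CPM in mouse neurons against 10.04 and 18.0 CPM in progenitors. In human its progenitor level was 1.44 and 12.4 CPM, neurons had no UMI, and it was at least 13.9-fold lower than in progenitors against a floor of 3 counts over all neurons, a fall with an edgeR adjusted p of 0.0833 without human replicate 2. In both species ORC1, CDC6, MCM10, EXO1, DTL and E2F8 were kept at means under 5%, and 12 genes in human and 11 in mouse were.

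The fall was followed over 5 exclusive classes, set out as steps. They were OLIG2+ progenitors, NEUROG2+ cells with SOX2, NEUROG2+ cells without SOX2, NEUROG2+ cells with at least 3 STMN2 UMIs, and neurons. No step after the first was gated on OLIG2, and the NEUROG2+ STMN2+ step was not gated on SOX2. The order of the steps is assumed, and passage of cells from one to the next was not tested. The largest drop of the sum lay between the step without SOX2 and the NEUROG2+ STMN2+ step. With a SOX2 UMI, human NEUROG2+ cells held 69.0% and 92.8% of the OLIG2+ progenitor sum of the 40 genes. Mouse values for this step were 102.3% and 97.5%. Without a SOX2 UMI the human parts stood at 52.4% and 75.7%, and the mouse parts at 91.6% and 89.5%. At the NEUROG2+ STMN2+ step the human parts stood at 15.7% and 20.9%, and the mouse parts at 27.5% and 22.4%. A thinned cell without a SOX2 UMI may still have held SOX2 transcripts. The share of such cells was not tested. In human replicate 1 the level in NEUROG2+ STMN2+ cells was no higher than in neurons, at 16.2%. From the step with SOX2 to the step without it, 37 and 38 of the 40 genes were lower in the human parts, where 54.9% and 57.5% of all genes were, and 34 and 36 in the mouse parts, where 49.2% and 47.3% were.

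**Figure D2:**
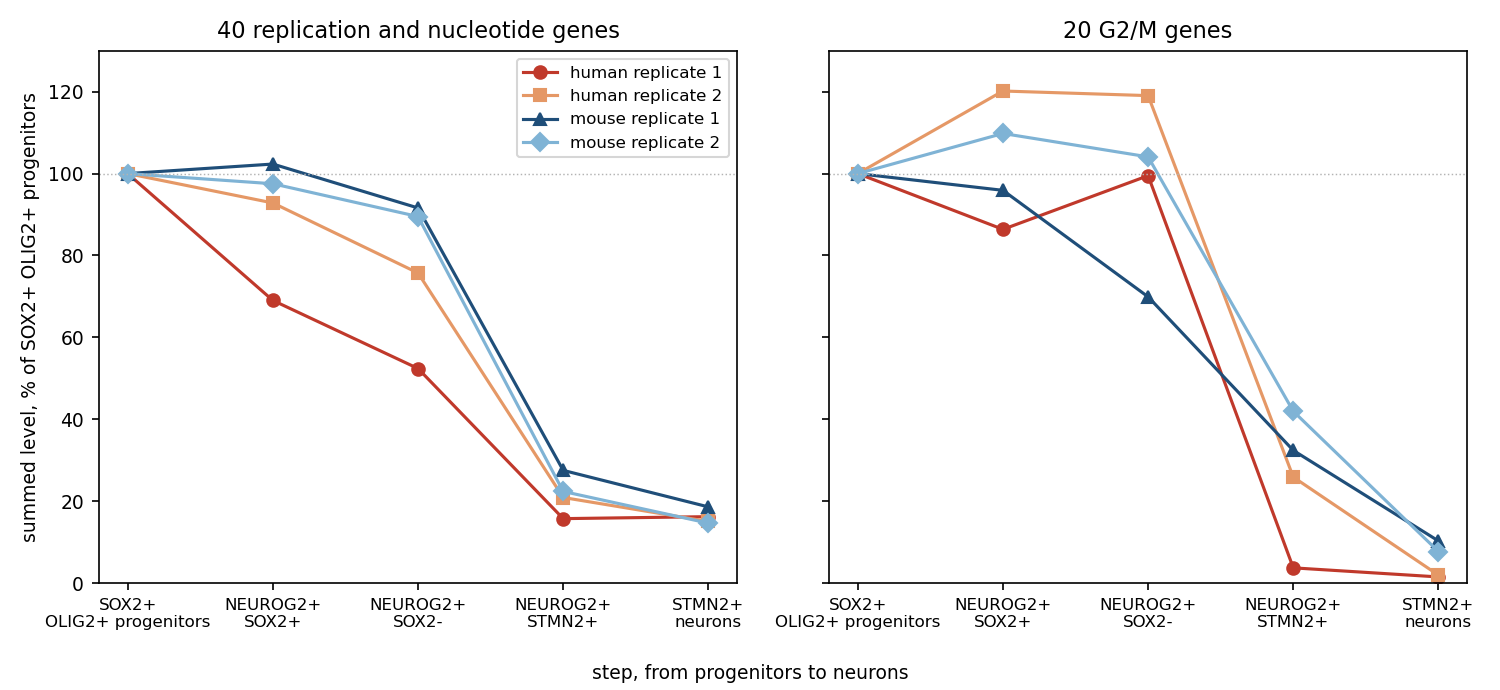
Summed level of the 40 genes (left) and of 20 G2/M genes (right) at 5 steps from progenitors to neurons, as a percent of SOX2+ OLIG2+ progenitors, with 1 line per library part. Both sums drop between the SOX2- step and the STMN2+ step, before which the human lines of the 40 genes lie at 52.4% to 92.8% and the mouse lines at 89.5% to 102.3%.

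A list of 20 G2/M genes, which act in the mitotic phase, gives the comparison within the same cells. In NEUROG2+ cells without SOX2 it stood at 99.5% and 119.0% in human, and mouse values were 69.9% and 104.1%. In both human parts and in mouse replicate 2 the 40 replication genes were thus lower relative to progenitors than the G2/M genes at this step, and in mouse replicate 1 they were higher. Genes low at this step in human were MCM4, at 22.1% and 62.5%, CDC6, at 31.1% and 36.2%, and LIG1, at 38.3% and 53.0%. The same genes were at 92.0% and 91.9%, 96.6% and 84.0%, and 85.5% and 88.6% in the mouse parts. RRM2 stood at 66.6% and 97.3% in human and 99.5% and 115.1% in mouse, which is above PCNA in all parts but mouse replicate 1, where PCNA was at 100.3%. E2F1, the activator of the G1/S programme and no member of the list, was at 114.8% and 98.7% in human and 149.7% and 165.2% in mouse. The step without SOX2 rests on 51 to 170 cells per part.

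Over all NEUROG2+ cells no gene of the list passed the test against OLIG2+ progenitors in either species, where 0.346% of all genes did in human and 0.727% in mouse (edgeR; unadjusted p was under 0.05 for 7 genes in human and 1 in mouse, and DESeq2 also called 0). Human values were all below 0, with a median log2 change of -0.32, and 34 genes were under the progenitor level in both human parts, against 32.8% of all genes. The lowest was CDC6, at -0.73 ± 0.21 (SE, edgeR adjusted p = 0.326), with 17.2 and 27.1 CPM in NEUROG2+ cells against 32.4 and 43.0 CPM. In mouse 25 genes were below 0 and 15 above, 22 were under the progenitor level in both parts, against 32.9% of all genes, the median was -0.03, and the lowest was DCTD, the deaminase that makes dUMP from dCMP, at -0.52 ± 0.16 (edgeR adjusted p = 0.285). DCTD had 31.2 and 42.2 CPM in mouse NEUROG2+ cells against 43.0 and 66.6 CPM. With at least 2 NEUROG2 UMIs required, CDC6 in human (log2 change -1.11, edgeR adjusted p = 0.0283) and DCTD in mouse (-0.74, adjusted p = 0.0486) passed. The human minus mouse difference at this stage passed for no gene (edgeR and DESeq2; 0% of all genes; unadjusted p under 0.05 for 2 and 1 genes). The human parts were unequal here: NEUROG2+ cells kept 65.5% of the sum in replicate 1 and 90.6% in replicate 2, against 98.0% and 94.1% in the mouse parts.

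Single cells showed the same fall as a shift of the whole class. At 7000 UMIs per cell the median neuron held 3 UMIs of the 40 genes in each human part and 4 in each mouse part, with 10th to 90th percentiles of 1 to 6 and 1 to 7. The median OLIG2+ progenitor held 19 and 21 UMIs in human and 24 and 31 in mouse, and its percentiles ran from 6 or 8 up to 39.3 to 47. NEUROG2+ cells lay between, at medians of 8 and 16 in human and 21 and 26 in mouse. Neurons with 10 or more of these UMIs numbered 3 and 6 in human and 5 and 16 in mouse, which is 1.55% and 2.60% of human neurons and 4.13% and 4.72% of mouse neurons. Of these cells 0 and 1 in human and 4 and 8 in mouse also held 3 or more G2/M UMIs.

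**Figure D3:**
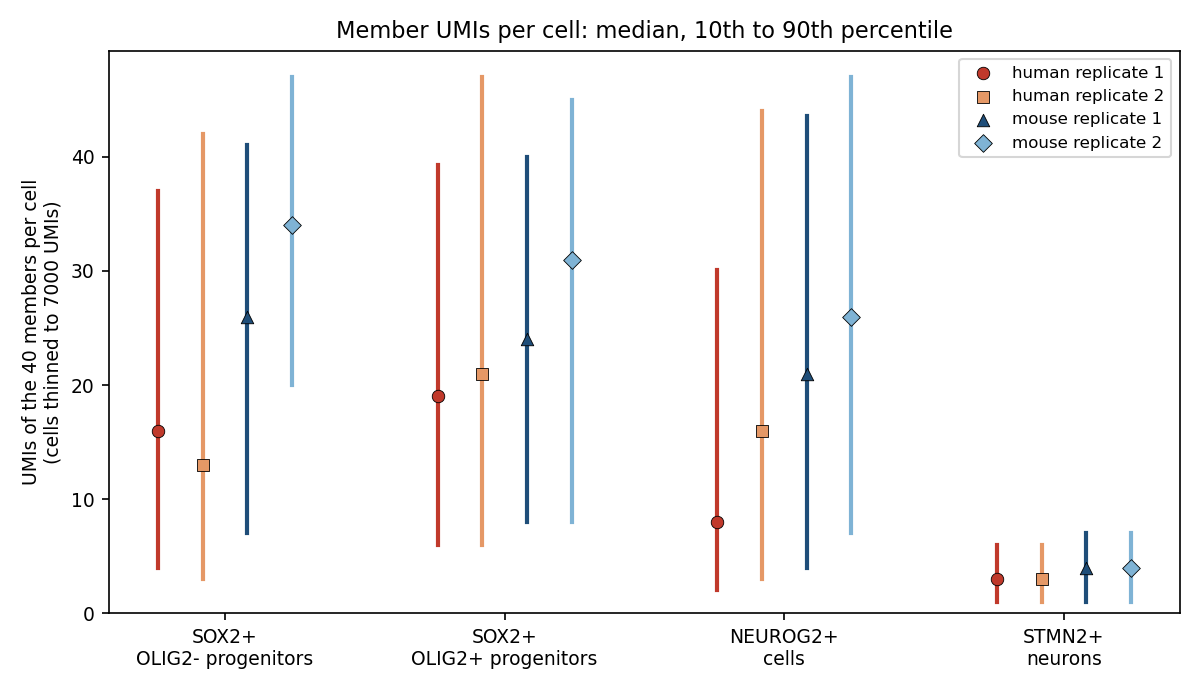
UMIs of the 40 genes per cell after thinning every cell to 7000 UMIs, by class, with the median as a symbol and a line from the 10th to the 90th percentile for each library part. Neurons lie at medians of 3 and 4 with short lines, and the 3 other classes span wide ranges, from 2 or more up to 47.

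G2/M transcripts were themselves higher in mouse neurons. Their sum was 1.49% and 1.92% of the progenitor level in human neurons and 10.3% and 7.69% in mouse neurons. Leaving out the 2, 5, 5 and 12 neurons with at least 3 G2/M UMIs brought it to 1.4% and 1.6% in human and 2.0% and 1.5% in mouse. The sum of the 40 genes was then 16.2% and 14.9% in human and 15.7% and 13.2% in mouse. Neurons with 20 or more STMN2 UMIs still held 15.0% and 14.8% of the progenitor sum in human and 13.1% and 12.3% in mouse, the mouse replicate 1 value from 18 cells. Of progenitor markers, the summed level of 10 was kept at 45.1% and 30.9% in human neurons and 46.9% and 28.3% in mouse neurons, and HES5, a Notch target among them, at 1.54% and 1.95% in human and 3.996% and 8.22% in mouse.

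Which genes were kept differed between human and mouse. For 15 of the 40 genes the log2 change in neurons differed between species by the edgeR interaction test, 7 higher and 8 lower in human, where 20.1% of all genes tested differed, 9.57% higher and 10.6% lower (DESeq2 also called 15). Measured against NEUROG2+ cells instead, the change differed for 7 genes higher and 4 lower in human, where 9.23% and 10.3% of all genes did. Neurons with 20 or more STMN2 UMIs were 123 of 194 and 170 of 231 in human, and 18 of 121 and 188 of 339 in mouse. The part of this imbalance in the differences was not tested. With a neuron gate of 10 STMN2 UMIs RRM2 did not pass (-1.34, edgeR adjusted p = 0.288). At that gate MCM3 (1.60), MCM5 (1.41) and MCM7 (0.78) passed, with edgeR adjusted p from 0.0229 to 0.0355.

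UNG and DCTD were the pair that passed under all 14 alternatives tried. The other 13 did not pass when the library part was not fitted as a block, with edgeR adjusted p of 0.0591 for CDT1, 0.0897 for GINS4 and 0.123 for DUT and ORC6. Without human replicate 1, MCM2, PRIM1, RFC2 and RRM2 did not pass either, and without human replicate 2 these 4 and POLA1, RFC3, RFC5 and TYMS did not. Without mouse replicate 1, MCM2, POLA1, PRIM1, RFC2 and RFC3 did not pass, and without mouse replicate 2, HELLS, POLA1, PRIM1, RFC3 and RFC5 did not. UNG, the glycosylase that removes uracil from DNA, had 28.5 and 38.9 CPM in human neurons against 74.1 and 104 CPM in OLIG2+ progenitors. In mouse it had 2.65 and 1.20 CPM in neurons, against 38.2 and 58.0 CPM in progenitors. Its log2 change was -1.48 ± 0.23 in human and -5.33 ± 0.37 in mouse, a difference of 3.86 ± 0.47 (SE, edgeR adjusted p = 0.000188). These values rest on 217 UMIs in human and 15 UMIs in mouse neurons. DCTD had 37.4 and 25.5 CPM in human neurons against 50.2 and 59.6 CPM in progenitors, and 5.82 and 5.77 CPM in mouse neurons against 43.0 and 66.6 CPM. Its difference between species was 2.66 ± 0.29 (SE, edgeR adjusted p = 9.96e-05). The human fall of DCTD, -0.92 ± 0.18 (adjusted p = 0.000986), was the smallest of the 40 and had an adjusted p of 0.147 without human replicate 2 and 0.0848 without the library block.

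DUT, in the same pathway, was kept at 47.8% and 49.1% in human and 18.9% and 14.7% in mouse, a difference of 1.71 ± 0.25 (SE, edgeR adjusted p = 0.000552). The human annotation names 8 pseudogenes after DUT, whose reads the counting could share with it. TYMS, the thymidylate synthase that uses dUMP, went the other way: it was at 13.8 and 8.08 CPM in human neurons against 312 and 374 CPM in progenitors, and at 18.0 and 14.8 CPM in mouse neurons against 86.1 and 131 CPM. The TYMS difference was -2.06 ± 0.44 (SE, edgeR adjusted p = 0.00603) and had an adjusted p of over 0.05 without human replicate 2. The other genes kept more in human were HELLS (1.72), POLA1 (1.78), PRIM1 (1.28) and RFC5 (1.12), a small loader subunit, with edgeR adjusted p from 0.00536 to 0.0225. HELLS had an adjusted p of 0.226 when cells marked as doublets were kept in.

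GINS4, another GINS subunit, had 2.46 and 0 CPM in human neurons against 31.1 and 26.8 CPM in progenitors. In mouse it had 30.2 and 25.7 CPM in neurons against 53.3 and 51.4 CPM in progenitors, 56.5% and 50.01% of the progenitor level. The difference was -4.0 ± 0.74 (SE, edgeR adjusted p = 0.00282). It rests on 5 UMIs in human neurons of replicate 1 and 0 in replicate 2 and ran from -9.47 without human replicate 1 to -2.56 without human replicate 2. The mouse fall of GINS4 on its own, -1.15 ± 0.30 (adjusted p = 0.00479), had an adjusted p of 0.126 without mouse replicate 2. CDT1, the licensing factor, had 0.983 and 1.47 CPM in human neurons against 108 and 73.1 CPM, and 25.9 and 9.98 CPM in mouse neurons against 67.4 and 44.7 CPM. Its difference was -4.02 ± 0.50 (SE, edgeR adjusted p = 0.000217). In the mouse annotation used here CDT1 overlaps the predicted gene Gm20388 on the same strand, and in the human annotation GINS4 overlaps GPAT4-AS1. The human annotation also names 3 pseudogenes after UNG, whose reads the counting could share with it.

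ORC6, the smallest origin recognition subunit, had 8.85 and 6.61 CPM in human neurons against 89.6 and 153 CPM in progenitors, and 35.4 and 71.8 CPM in mouse neurons against 121 and 207 CPM. Its difference was -2.33 ± 0.36 (SE, edgeR adjusted p = 0.000927). RFC2, a small loader subunit, had 14.7 and 19.3 CPM in human neurons against 71.4 and 100.2 CPM in progenitors, and 57.7 and 37.4 CPM in mouse neurons against 102 and 103 CPM. That is a difference of -1.01 ± 0.31 (edgeR adjusted p = 0.0356). RRM2 (-2.14), MCM2 (-2.07) and RFC3 (-1.12) were also kept less in human, with edgeR adjusted p from 0.0309 to 0.0378. Without the neurons that held at least 3 G2/M UMIs the RRM2 difference was -0.95 (edgeR adjusted p = 0.412). In that fit MCM3 (1.36) and CLSPN (1.82) passed, with edgeR adjusted p of 0.0457 and 0.0414. GINS4 stood at 52.0% and 47.5% and CDT1 at 38.6% and 21.6% in the remaining mouse neurons. In these same neurons DCTD stood at 73.0% and 42.8% in human and 14.2% and 8.7% in mouse. EXO1 and E2F8, which had no UMI in human neurons, did not pass (edgeR adjusted p = 0.287 and 0.230).

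**Figure D4:**
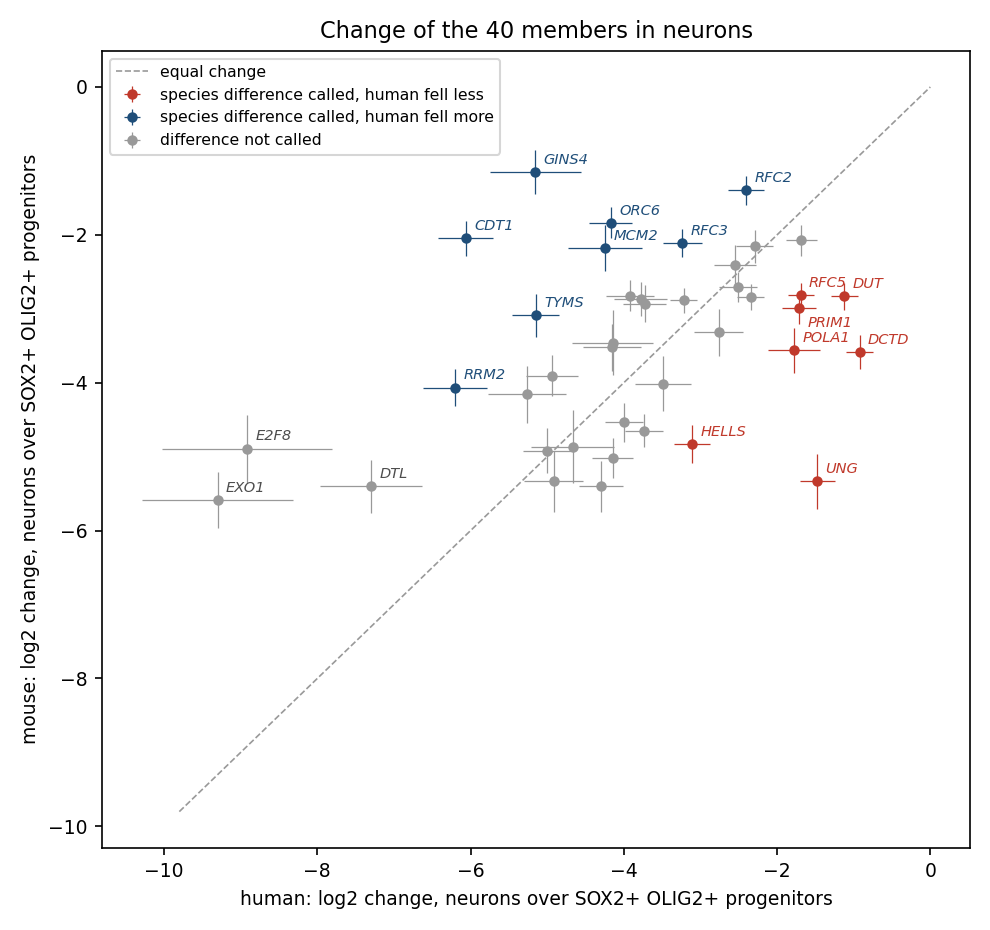
Log2 change of each of the 40 genes in neurons over SOX2+ OLIG2+ progenitors, human on the horizontal and mouse on the vertical axis, with bars of 1 standard error from the joint fit and the dashed line at equal change. UNG and DCTD lie below the line, where human fell less, GINS4 and CDT1 above it, and the human values of EXO1 and E2F8 come from 0 UMIs in neurons and are no measured size.

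In NEUROG2+ cells that passed the STMN2 gate, DCTD, UNG and GINS4 stood on the same side between species as in neurons. DCTD stood at 77.9% and 81.3% of the progenitor level in human and at 12.7% and 5.5% in mouse. UNG stood at 35.5% and 31.6% in human and at 0% and 3.9% in mouse, and GINS4 at 7.7% and 14.9% in the human parts against 59.0% and 42.7% in the mouse parts. In neurons with 20 or more STMN2 UMIs DCTD stood at 67.5% and 41.8% in human and 7.4% and 8.3% in mouse, and GINS4 at 7.6% and 0% in human and 47.7% and 48.2% in mouse. Neurons with 20 or more STMN2 UMIs are a subset of those in which the differences of DCTD and GINS4 were found. The same side there is therefore no separate support. They held 1 DCTD UMI in mouse replicate 1, and 3 and 0 GINS4 UMIs in the human parts. All values of this paragraph are descriptions and were not tested.

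Levels in OLIG2+ progenitors differed between species for 10 of the 40 genes, 1 higher and 9 lower in human, where 29.7% of 10181 genes tested differed, 17.3% higher and 12.4% lower (edgeR, 2 parts against 2). TYMS was the gene higher in human, at 312 and 374 CPM against 86.1 and 131 CPM in mouse, a log2 difference of 1.58 ± 0.32 (SE, adjusted p = 0.0104). In the human annotation ENOSF1 and TYMSOS overlap TYMS. The strands of human overlaps were not compared, and whether reads were shared was not tested. MCM6, a ring subunit, had 50.2 and 56.7 CPM in human against 158 and 192 CPM in mouse, and its difference of -1.79 ± 0.31 (SE, adjusted p = 0.00631) passed under all 13 alternatives tried. LIG1 was at 46.9 and 46.7 CPM in human against 179.7 and 125 CPM in mouse (-1.80 ± 0.38, edgeR adjusted p = 0.0119). RRM2 was at 136 and 53.7 CPM in human against 371 and 305 CPM in mouse (-1.86 ± 0.54, edgeR adjusted p = 0.0378), and the human lines differed more from each other here than the mouse parts. DTL had 30.6 and 25.7 CPM in human against 96.1 and 68.1 CPM in mouse (-1.64 ± 0.40, edgeR adjusted p = 0.0215). EXO1, GINS1, DUT, RFC3 and MCM5 were the other 5 lower in human, with log2 differences of -1.13 to -1.60. Of the 10 genes, MCM6 alone still passed without mouse replicate 1, MCM6, LIG1 and DTL without mouse replicate 2, and MCM6, LIG1 and TYMS without human replicate 2. Without human replicate 1, DUT, GINS1 and RFC3 did not pass. A level set across species also holds differences in annotation and in read mapping. The replicates of a species were counted on annotations of unequal size. The human annotation names pseudogenes after DUT, RRM2, TYMS and RFC3, whose reads the counting could share with these genes.

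**Figure D5:**
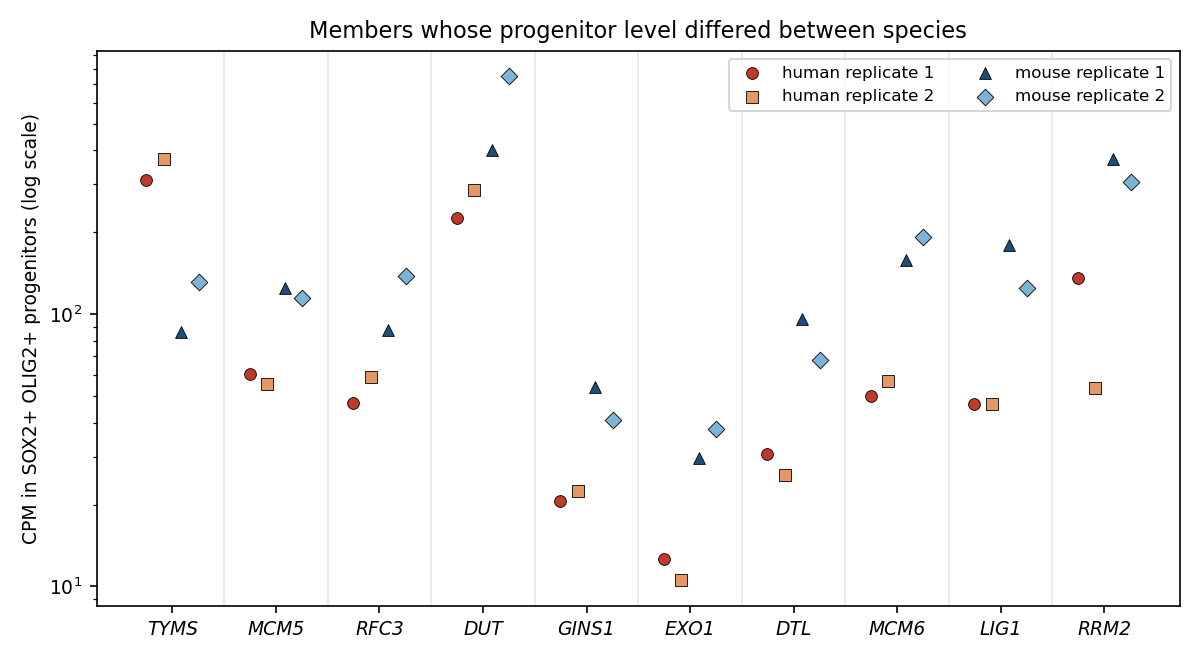
CPM in SOX2+ OLIG2+ progenitors, on a log axis, of the 10 genes whose level passed the test between species, with 1 symbol per library part. TYMS is the gene with both human values above both mouse values, and the other 9 have both human values below both mouse values.

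SOX2+ OLIG2- progenitors were also set against OLIG2+ progenitors, and no gene of the list passed the test. The sum of the 40 in OLIG2- progenitors was 95.3% and 83.6% of the OLIG2+ level in human and 106.5% and 110.3% in mouse. The test was passed by 0 of the 40 genes in either species (edgeR, where 0.415% of all genes did in human and 0.00865% in mouse; DESeq2 called 0; unadjusted p was under 0.05 for 0 genes in human and 1 in mouse, which was UNG at 0.50). In mouse OLIG2- progenitors 28 genes were above the OLIG2+ level in both parts and 3 below it in both, against 29.3% and 26.5% of all genes. In human 1 was above it in both and 24 below it in both, against 20.7% and 35.5% of all genes. The species difference passed for no gene of the list (0.0173% of all genes; unadjusted p under 0.05 for 1 gene by edgeR and 0 by DESeq2). The summed level of 8 mesenchyme markers was 53.7 and 758 CPM in human OLIG2- progenitors against 11.3 and 21.04 CPM in OLIG2+ ones, and 2.78 and 34.3 CPM in mouse OLIG2- progenitors against 1.76 and 5.05 CPM. The sum of 6 epithelium markers was 148 and 338 CPM in human OLIG2- progenitors against 77.5 and 72.0 CPM, and 15.0 and 84.3 CPM in mouse OLIG2- progenitors against 4.05 and 18.5 CPM. The part of such cells in the result was not tested.

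Genes of neighbouring pathways are given from lists drawn up by function. In neurons 23.2% of all genes rose in human and 28.3% in mouse, beside the shares that fell given above. Of 35 other replication genes 32 fell and 2 rose in human and 31 fell and 1 rose in mouse, with median log2 changes of -1.97 and -2.36, and neurons kept 25.3% to 33.3% of their sum. POLD4, a small accessory subunit of polymerase delta, was the one that rose most, to 26.5 and 3.67 CPM in human neurons against 11.5 and 1.29 CPM, and to 39.1 and 28.5 CPM in mouse neurons against 8.63 and 9.17 CPM. ASF1B, a histone chaperone, fell to 0.983 and 0.489 CPM in human neurons against 65.8 and 31.9 CPM, and to 4.23 and 1.92 CPM in mouse neurons against 45.2 and 32.2 CPM. TICRR, an activator of origin firing, and POLE2, a polymerase epsilon subunit, were at most 1.08 CPM in neurons of every part.

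Of 18 other nucleotide genes 13 fell in each species, none rose in human and 2 rose in mouse. TK1, the thymidine kinase of dividing cells, fell to 0.491 and 0.245 CPM in human neurons against 60.6 and 38.0 CPM, and to 2.65 and 1.68 CPM in mouse neurons against 76.6 and 33.5 CPM. SHMT1, a folate enzyme, also fell in both species (log2 changes of -3.04 in human and -6.74 in mouse). RRM2B, the small reductase subunit of non-dividing cells, had 9.34 and 14.7 CPM in human neurons against 12.9 and 22.0 CPM (log2 change -0.60, edgeR adjusted p = 0.0579). In mouse it rose to 8.99 and 25.8 CPM in neurons against 2.64 and 5.61 CPM in progenitors (1.89). SAMHD1, which breaks down deoxynucleotides, was at 0.983 and 6.36 CPM in human neurons against 2.88 and 5.54 CPM and did not pass, and fell to 8.46 and 9.38 CPM in mouse neurons against 20.8 and 27.5 CPM.

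Mitochondrial replication genes fell for 4 of 7 in each species, with TFAM, which packages mitochondrial DNA, at 47.8% and 51.5% in human and 43.0% and 36.6% in mouse, and MGME1, a mitochondrial exonuclease, falling by 2.12 in human and 2.33 in mouse on the log2 scale. SSBP1, the mitochondrial single-strand binding protein, was at 75.4% and 73.2% in human and 34.3% and 34.2% in mouse. Among the 5 neighbouring lists base excision repair genes kept most of their sum, with 8 of 18 lower and 2 higher in human, 10 lower and 3 higher in mouse, and 80.9% to 86.2% of their sum kept. POLB, the repair polymerase, rose to 25.6 and 55.1 CPM in human neurons against 10.8 and 16.8 CPM, and to 87.3 and 171 CPM in mouse neurons against 30.5 and 52.0 CPM. MUTYH, a glycosylase that acts on adenine opposite damaged guanine, and TDP1, which frees trapped topoisomerase, fell in both species, by 1.28 and 1.33 in human and 2.04 and 1.67 in mouse on the log2 scale.

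Of 16 E2F and retinoblastoma pathway genes 14 fell in each species and 1 rose in mouse. E2F1 fell to 5.90 and 5.14 CPM in human neurons against 46.9 and 60.3 CPM, and to 20.1 and 13.2 CPM in mouse neurons against 59.0 and 51.8 CPM. E2F2 had no UMI in human neurons and was at 1.06 and 1.08 CPM in mouse neurons against 8.80 and 8.79 CPM. All 20 G2/M genes fell in both species, among them MKI67, a marker of dividing cells, to 0.983 and 0.734 CPM in human neurons against 123 and 181 CPM and to 6.35 and 13.1 CPM in mouse neurons against 67.4 and 114 CPM. TOP2A, the mitotic topoisomerase, was kept at 1.85% and 1.40% in human and 7.52% and 5.80% in mouse, and PAX6, a progenitor factor, at 19.96% and 7.80% in human and 34.5% and 11.2% in mouse.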

How the data were processed

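Droplet 3' single-cell libraries of 3 samples gave 4 library parts. Per the submitters' processing notes, Cell Ranger 3.1.0 and the builds mm10 and hg38 were used; which annotation and strand setting were used, and how empty droplets were removed, is not given in the sources used here. As deposited, the values are raw UMI counts per gene and cell, and no column was left unused. Symbols were upper-cased and matched between files.

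Cells needed 1000 UMIs, 500 genes and at most 10% mitochondrial UMIs, which removed 15 and 215 human and 5 and 77 mouse cells. The 60 barcodes shared by both species files of the mixed library were left out of both; human replicate 2 and mouse replicate 2 shared 2 and the mouse parts 1. Scrublet in scanpy 1.11.5 (expected rate 5%) removed 11, 24, 5 and 32 doublets, leaving 2321, 1805, 1811 and 2674 cells. Classes were gated on counts thinned to 7000 UMIs, which 80.9% to 96.3% of cells reached, and unthinned counts were then summed per class and part. The median neuron had 9990.5 to 24540 UMIs and the median OLIG2+ progenitor 13294 to 28292.

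Sums entered edgeR 4.0.16 (limma 3.58.1, R 4.3.3, TMM, filterByExpr, glmQLFit). The library part was a block, because the classes of a part come from the same library, and class was fitted within species. Progenitor levels between species were fitted apart, without a block. The standard error (SE) of an edgeR log2 change is its size divided by the square root of the F statistic of its test. Adjusted p-values are Benjamini-Hochberg over all genes tested, with a threshold of 0.05. CPM values are from the sums over all symbols of a part; intervals and floors of 3 counts cover counting error only. A 3' count is not divided by transcript length, so levels were compared within a gene, and CPM across genes only chose which to name. DESeq2 1.42.0 was an alternative. Simulated counts were given a fixed dispersion (spread beyond counting error) of 0.05 for every gene, not an estimate from these data. On them the fit recovered 76% of 4-fold changes in human neurons, 80% in mouse neurons, 24% in their difference and 91% between species in progenitors. Of 2-fold changes it recovered 12%, 11%, 2% and 22%. Recovery at the spread of these data was not tested.

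The genes and lists were chosen with earlier results of these data known. Genes named with full values are the highest of each of the 7 groups in OLIG2+ progenitors, the 4 kept most and the 4 kept least on average over the 4 parts (with at least 50 UMIs in progenitors of every part, which 38 genes had), the 4 with the largest species difference in the neuron change and the 4 with the largest level difference; of the other lists the 3 largest called changes, plus RRM2B, SAMHD1, TK1, E2F1, MKI67, TOP2A, HES5 and PAX6. A gene that this rule names is not reported here. Others were named after their values were seen. Overlaps with other genes were read from RefSeq GRCh38.p14 and from GENCODE M21 on GRCm38, which found all 40 genes. No sequence is printed.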

Additional observations from a re-analysis of the deposited data

Results flagged for a closer look

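The change in neurons over SOX2+ OLIG2+ progenitors differed between human and mouse, by the interaction test of the joint edgeR fit, for 15 of the 40 genes (20.1% of all genes tested differed). Human minus mouse log2 differences were positive, so that human neurons fell less, for UNG (3.86), DCTD (2.66), POLA1 (1.78), HELLS (1.72), DUT (1.71), PRIM1 (1.28) and RFC5 (1.12). They were negative for CDT1 (-4.02), GINS4 (-4.00), ORC6 (-2.33), RRM2 (-2.14), MCM2 (-2.07), TYMS (-2.06), RFC3 (-1.12) and RFC2 (-1.01). Of 14 alternatives, UNG and DCTD passed in all, CDT1, GINS4, ORC6 and DUT in 13, TYMS in 12, HELLS and RFC5 in 11, POLA1 and RFC3 in 10, MCM2 and RFC2 in 9, and RRM2 and PRIM1 in 8. None of the 15 changed sign.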

How the results depend on the processing

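The 23 counts and shares that moved were these. With at least 2 NEUROG2 UMIs, 1 gene passed downward in NEUROG2+ cells of each species, against 0, and mouse NEUROG2+ cells kept 87.0% of the sum, against 96.1%. With gates on unthinned counts mouse neurons kept 19.7%, against 16.6%. Species differences of the neuron change numbered 7 higher and 8 lower in human; leaving out 1 library part gave 3 to 6 and 3 to 7, fewest without mouse replicate 2 and without human replicate 2. Fitted without the library part as replicate block they numbered 2 and 0. Against NEUROG2+ cells the 7 higher and 4 lower became 3 to 11 and 1 to 6 with 1 part left out, 1 and 0 without the block, 11 higher at 10 STMN2 UMIs and 11 higher without neurons holding G2/M UMIs, an alternative chosen after seeing the data. Level differences, 1 higher and 9 lower, became 0 to 1 and 1 to 7 with 1 part left out, where the lone part of a species is assumed to vary like the others. The causes were not tested. The other 429 such values did not move, and of 940 single-gene values 75 lost their call and none reversed.

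Under the fit without the block DCTD (adjusted p = 0.0848) and POLA1 (0.115) lost their human fall and GINS4 (0.188) its mouse fall in neurons. Without human replicate 2 DCTD (0.147) and E2F8 (0.0833) lost theirs. Other scaling and DESeq2 moved no median of all genes by over 0.1.

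The labels give no separate cultures and no day per cell, days are pooled, and n is 2 per species. Exact permutation of a sum between species cannot go below 0.333. In simulation with a fixed spread, not an estimate from these data, 24% of 4-fold and 2% of 2-fold species differences were found. Power at the spread of these data was not tested, so a difference that did not pass is not shown to be absent. Genes with few UMIs in neurons, such as ORC1, EXO1, DTL and E2F8, are limited by depth.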
